A study of Rattus norvegicus with 18 samples.

Results

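The proteasome genes of rat T-MBP cells were described in 3 tables of normalized counts, each holding one gene-edited group and its own control. A proteasome gene was any gene whose symbol begins with Psma to Psmg followed by a number. Of the 32882 genes of each table, 50 had such a symbol. Genes whose normalized counts averaged 10 or more across a table's 6 libraries were tested, and 45 of the 50 passed in the parenchyma table and 46 in each of the spleen tables. The choice of genes used no measured difference between the groups.

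T-MBP cells are CD4+ T cells of Lewis rats that recognize myelin basic protein and cause a central nervous system inflammation resembling multiple sclerosis when they are transferred into healthy rats. They were edited in bulk culture with Cas9, not grown from single clones, restimulated with MBP and reisolated from the recipients 3 days after transfer. The 18 libraries formed 6 groups of 3. Ets1-KO cells and cells with a non-targeting guide (NT, labelled WT and called control here) came from the spinal cord parenchyma and from the spleen, and Grk2-KO cells with controls of their own came from the spleen. Per the study's text, Ets1-KO and control cells of the parenchyma came from rats that had received both. Control cells were sorted by BFP and KO cells by GFP, so that reporter and genotype cannot be told apart. The ages of the rats and the number of rats behind a library are not given in the labels, and nothing in the labels ties a replicate number to an animal. The p values measure the spread between these libraries.

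The proteasome degrades proteins that carry chains of ubiquitin. Its barrel, the 20S core, has outer rings of alpha subunits (Psma genes) and inner rings of beta subunits (Psmb genes), of which Psmb6, Psmb7 and Psmb5 carry the active sites. The 19S regulator caps the barrel, with ATPases (Psmc genes) that unfold the substrate and non-ATPase subunits (Psmd genes) that bind ubiquitin or remove it. In lymphocytes and in cells exposed to interferon, Psmb9, Psmb10 and Psmb8 can replace the constitutive active-site subunits to form the immunoproteasome, and PA28 alpha and beta (Psme1 and Psme2) form an alternative cap. These forms are known for making peptides for MHC class I molecules.

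The 50 genes comprised 14 constitutive core subunits, the testis form Psma8 and the thymus form Psmb11, 17 subunits of the 19S regulator, the 5 immunoproteasome and PA28 genes, 3 chaperones of 19S assembly, 4 chaperones of 20S assembly (Psmg1 to Psmg4) and 3 other regulators (Psme3, Psme4 and Psmf1). Psmc3ip and Psme3ip1 have matching symbols but encode proteins that are not subunits, and were counted apart. The gene listed as Psma3l carries a name that RefSeq gives as a synonym of Psma3.

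Promoter sequences were taken from RefSeq (GRCr8), as windows of 250 bases before and 50 bases after the start of a gene. Such a window was found for 45 of the 50 genes. Psma7, Psmb11, Psmd6, Psmd12 and Psmd14 were not matched. The windows of Psmd2 and Psma5 are shown because these genes had the lowest and the highest estimate in Ets1-KO cells of the spleen, and that of Psmb10 because it holds an interferon element. Capitals mark CCGGAA, one form of the sites that bind ETS factors such as Ets1, in the window of Psmd2, CCAAT, the box bound by NF-Y, in that of Psma5, and the core of an interferon-stimulated response element (GAAA, any 2 bases and GAAA again) in that of Psmb10, each on either strand.
Psmd2, chr11:93763339-93763638, minus strand: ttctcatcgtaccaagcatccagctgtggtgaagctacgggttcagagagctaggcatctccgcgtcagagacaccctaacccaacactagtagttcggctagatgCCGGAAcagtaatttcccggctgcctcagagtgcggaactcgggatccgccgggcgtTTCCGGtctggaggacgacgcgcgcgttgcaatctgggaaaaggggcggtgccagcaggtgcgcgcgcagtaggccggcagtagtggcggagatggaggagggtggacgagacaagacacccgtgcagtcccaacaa
Psma5, chr2:198584255-198584554, plus strand: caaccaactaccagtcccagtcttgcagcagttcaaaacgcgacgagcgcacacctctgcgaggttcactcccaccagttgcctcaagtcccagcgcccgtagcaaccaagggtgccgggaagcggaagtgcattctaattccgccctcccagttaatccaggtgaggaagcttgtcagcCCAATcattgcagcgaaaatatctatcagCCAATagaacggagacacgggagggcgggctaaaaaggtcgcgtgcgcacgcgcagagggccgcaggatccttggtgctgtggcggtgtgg
Psmb10, chr19:50743243-50743542, minus strand: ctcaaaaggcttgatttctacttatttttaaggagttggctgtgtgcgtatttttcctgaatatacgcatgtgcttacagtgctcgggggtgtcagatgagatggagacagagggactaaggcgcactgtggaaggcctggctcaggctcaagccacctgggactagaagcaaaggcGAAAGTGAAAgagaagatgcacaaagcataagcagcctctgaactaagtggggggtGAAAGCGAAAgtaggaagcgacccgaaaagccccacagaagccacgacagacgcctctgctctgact
The Psmd2 window held 2 matches to CCGGAA and no CCAAT, the Psma5 window held 2 CCAAT boxes and no CCGGAA, and the Psmb10 window held 2 interferon elements and neither of the other motifs.

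The shorter core that ETS sites share, GGAA, was too common to tell windows apart, with 5 matches in the Psmd2, 4 in the Psma5 and 3 in the Psmb10 window and at least 1 in all 45 proteasome windows and 95.8% of all windows. CCGGAA was found in 23 of the 45 windows (51.1%), against 15.8% of all 27457 rat windows and 33.9% of the 6053 windows of genes tested here. It was in 10 of 14 windows of 19S subunits, 5 of 14 windows of core subunits, counting Psma8, and none of the 5 windows of immunoproteasome and PA28 genes. CCAAT was also in 23 windows (51.1%), against 37.7% of all windows and 39.0% of those of tested genes. The core of the antioxidant response element (TGACNNNGC), the kind of site bound by Nrf1 and Nrf2, was in 8 windows (17.8%, against 12.2% of all and 15.3% of those of tested genes). The interferon element, searched after the letters of the windows had been seen, was in 7 windows (15.6%, against 3.77% of all and 3.32% of those of tested genes). These were the windows of Psmb8, Psmb10 and Psme2 and of Psma4, Psmb3, Psmd7 and Psmg4. The windows of Psmb9 and Psme1 held none. All motifs were searched on both strands, and in the proteasome windows no 2 of the 4 motifs overlapped except CCAAT and TGACNNNGC in 1. These matches describe letters in a window and not binding.

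Between 898092 and 2248258 reads per library fell on genes. In the Ets1 spleen experiment KO libraries had 1909862 to 2248258 and controls 898092 to 1213485. In the parenchyma KO libraries had 1246779 to 1411767 and controls 1437169 to 1546206. Depth and genotype cannot be told apart in either. Grk2 was lower in Grk2-KO cells (53.3 to 87.3 normalized counts, against 142 to 166 in controls), with a log2 fold change of -1.22 (SE 0.13, limma adjusted p = 1.76e-12). Ets1 transcripts did not differ detectably in either tissue (log2 fold change 0.09, limma adjusted p = 0.560 in the parenchyma, and -0.06, adjusted p = 0.854 in the spleen), and reads from 3' ends do not show an edit elsewhere in the gene. Replicate 3 of the spleen controls for Ets1-KO stood apart from the other libraries. It had the fewest reads, its median correlation with the other 5 libraries of its table was 0.946, against 0.963 to 0.965 for those, and it was the lowest library for 9 of 14 core subunits and the highest for 6 of 17 subunits of the 19S regulator. All 8 T cell markers were detected in every library. Cd4 was low throughout, at 35.7 to 49.1 in parenchyma controls, 22.7 to 33.4 in Ets1-KO cells there and at most 21.9 in any spleen library. Of the 2 CD8 markers, Cd8a had 0 to 3.74 in parenchyma controls and 5.67 to 10.1 in Ets1-KO cells there, and Cd8b was at 0 throughout. Summed myeloid markers were 27.3 to 51.1 in parenchyma controls and 42.5 to 64.7 in Ets1-KO cells there, mainly Lyz2, and at most 10.96 in any spleen library, with Adgre1 and Mrc1 at 0 throughout. Of 10 B cell markers at most 3 were detected in a library, with a sum of at most 13.1 and Pax5, Blk and Cd22 at 0. The 8 neural markers summed to 2.80 to 18.7 in parenchyma controls and 18.2 to 31.3 in Ets1-KO cells there, and to 22.6 to 48.1 in spleen controls for Ets1-KO and 69.2 to 118 in Ets1-KO cells. In the spleen this was nearly all Nefl, with Mog, Mobp, Gfap and Aqp4 at 0. The part of these markers in the results was not tested. Fewer cells of a type and less RNA per cell cannot be told apart in bulk libraries.

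In the spinal cord parenchyma, Psmd14 (chr3:47578383-47673338, plus strand, Rnor_6.0) rose in Ets1-KO cells. Psmd14 encodes the deubiquitinase of the 19S lid that cuts ubiquitin chains off a substrate as it enters the core. Its normalized counts were 273, 272 and 270.3 in the controls and 348, 372 and 329.8 in the Ets1-KO libraries. The controls lay within 3 counts of each other and every KO library lay above them, from 275 to 368 reads per library. The closeness of the 3 controls is not the spread behind the SE below, which limma largely shares across genes of like level. The fold was 1.29 (95% interval 1.123 to 1.47), with a log2 fold change of 0.36 (SE 0.10, limma adjusted p = 0.00883). The call did not hold everywhere: the adjusted p was 0.256 with DESeq2, 0.366 in limma without the variance trend, 0.0685 without replicate 1 and 0.231 without replicate 2. Exact permutation tests of 3 against 3 libraries cannot go below p = 0.1, which Psmd14 reached.

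Psmd14 was the only one of the 45 proteasome genes tested in the parenchyma that was called at an adjusted p under 0.05, where 5.23% of all 7002 genes tested were called. At an unadjusted p under 0.05 there were 4 of 45 (8.89%), Psmd14, Psmb3, Psmf1 and Psme3ip1, against 16.9% of all genes. edgeR called 1 (5.06% of all genes) and had 7 at an unadjusted p under 0.05 (16.8%), and DESeq2 called 0 (1.14%) and had 2 (5.34%). Control and Ets1-KO libraries did not overlap for 7 of 45, where 18.4% of all genes had such groups. The shares of proteasome genes with a call or with groups apart were thus near or below those of all genes.

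**Figure D1:**
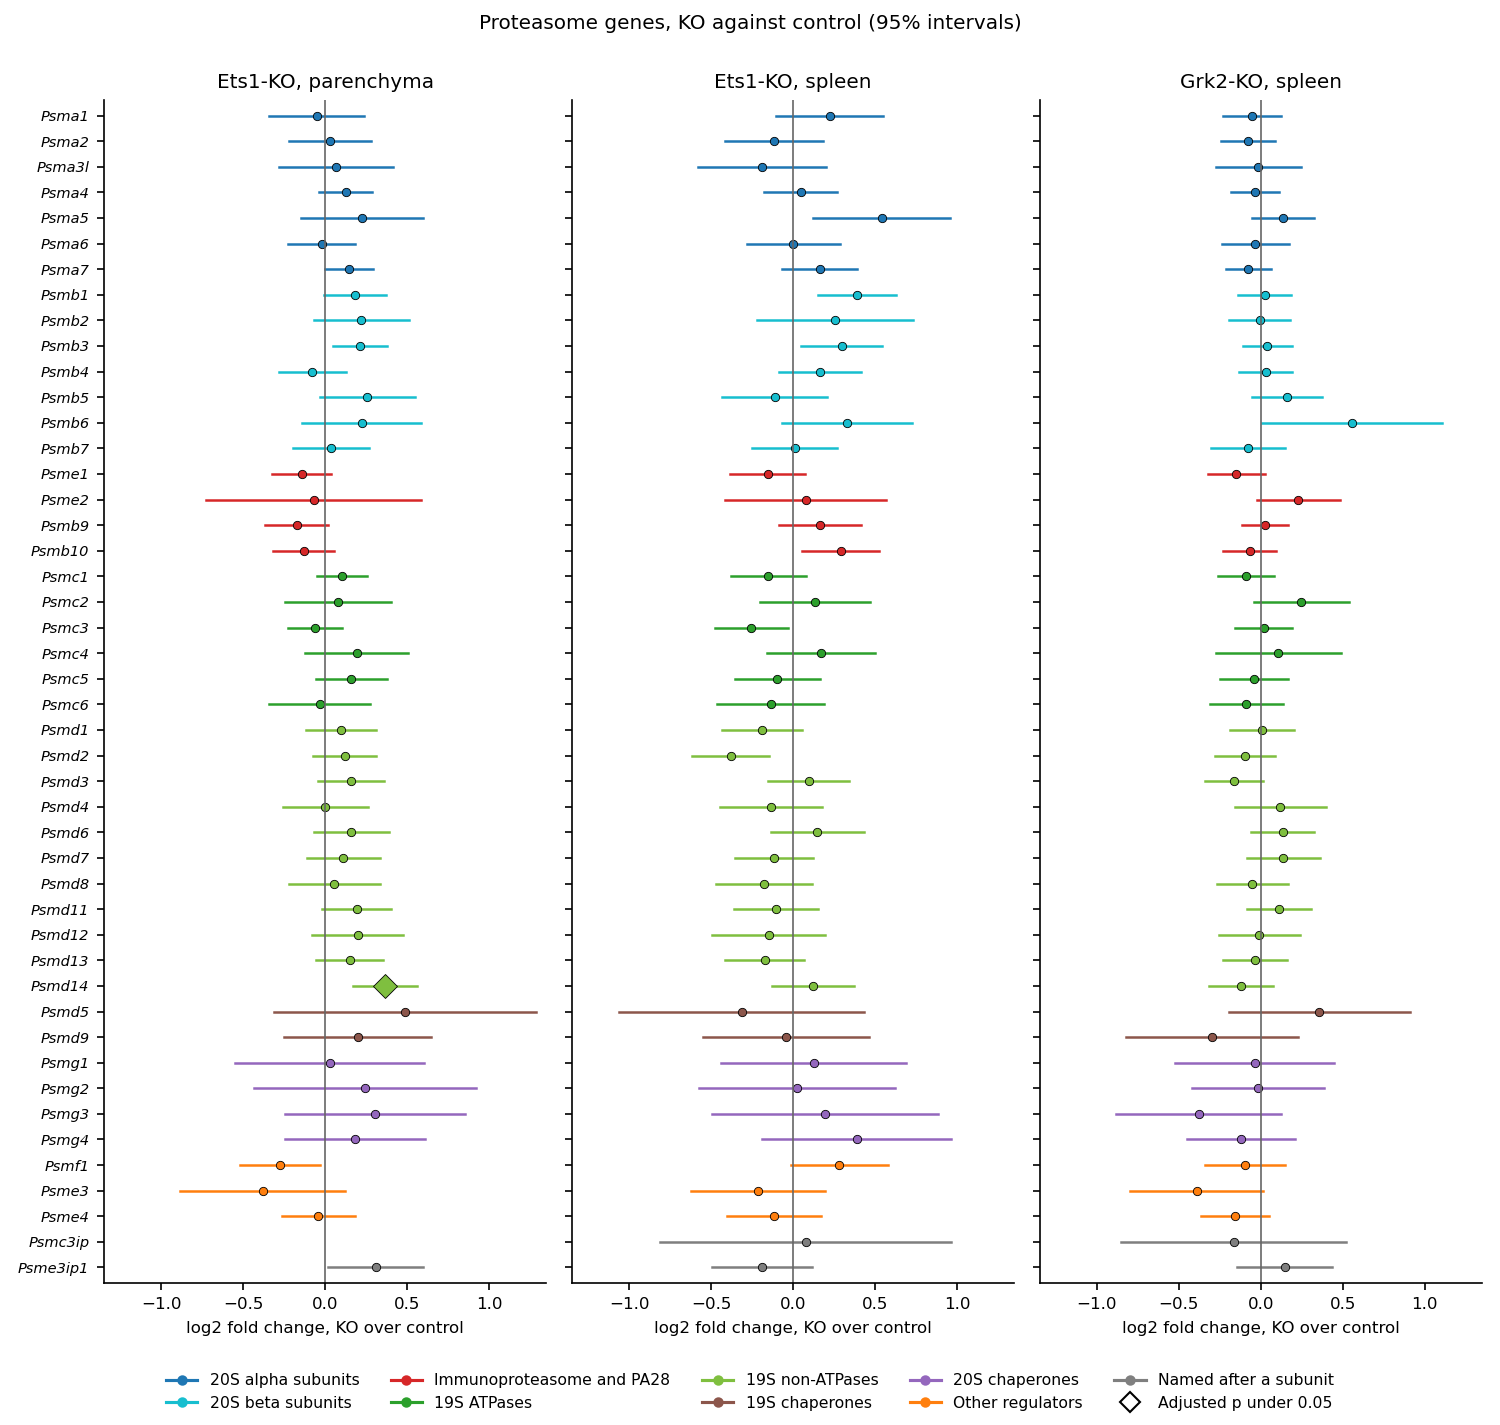
Log2 fold change of KO over control (x axis) for each proteasome gene that passed the count minimum (rows, coloured by role), in 3 comparisons, with points for limma estimates and lines for 95% intervals. Psmd14 in the parenchyma, at 0.36, is the one diamond, the symbol for an adjusted p under 0.05, and most other intervals cross 0.

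The sizes of the differences were small. The median log2 fold change of the 45 genes in the parenchyma was 0.12, with 33 positive, while the median of all genes tested was -0.03, with 45.4% positive. The 14 core subunits had a median of 0.13, with 11 positive, and the 17 subunits of the 19S regulator a median of 0.12, with 15 positive. All 11 non-ATPase subunits of 19S were at or above 0, between 0.00 for the ubiquitin receptor Psmd4 and 0.36 for Psmd14. The core median was 0.04 without replicate 3. The 95% interval lay within 0.5 of 0 on the log2 scale for 29 of 45 genes, and within 1 for 44. The exception was Psmd5, a chaperone of 19S assembly and the gene with the highest estimate.

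Psmd5 had 12.1, 4.70 and 9.83 normalized counts in the controls and 14.2, 12.1 and 10.2 in Ets1-KO cells, from 5 to 14 reads per library. Its groups overlapped, and the log2 fold change of 0.49 (95% interval -0.31 to 1.28, limma adjusted p = 0.593) was not distinguishable from 0 at this depth. The lowest estimate was that of Psme3, which encodes PA28 gamma, a nuclear cap of the core. Its counts were 27.1, 40.4 and 30.5 in the controls and 35.4, 19.2 and 21.5 in KO cells. These overlapped too (log2 fold change -0.38, 95% interval -0.88 to 0.12, adjusted p = 0.476).

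The constitutive active-site genes did not pass the test in the parenchyma. Psmb5, the chymotrypsin-like subunit, had 86.9, 110.0 and 73.7 normalized counts in the controls and 115, 81.9 and 128 in Ets1-KO cells. The KO library of replicate 2 lay below its control and the other 2 above theirs. The log2 fold change was 0.26 (95% interval -0.03 to 0.54, limma adjusted p = 0.371), and it ranged from -0.01 without replicate 3 to 0.60 without replicate 2 (limma adjusted p = 0.991 and 0.0496). Psmb6, the caspase-like subunit, gave 0.22 (-0.14 to 0.59; -0.08 without replicate 3) and Psmb7, the trypsin-like subunit, 0.04 (-0.20 to 0.27).

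The immunoproteasome genes had estimates below 0 in the parenchyma, none of which passed the test. Psmb9 had 340.0, 339 and 343 normalized counts in the controls and 313, 251 and 351 in Ets1-KO cells. The KO library of replicate 3 lay above all controls and the other 2 below them, with a fold of 0.887 (95% interval 0.776 to 1.014, limma adjusted p = 0.367). Psmb10, the partner of Psmb9 in the immunoproteasome, had 344, 406 and 412 in the controls and 326, 339 and 397 in KO cells. Each KO library lay below the control of its number and the groups overlapped (log2 fold change -0.13, -0.32 to 0.05, adjusted p = 0.513). Psme1 gave -0.14 (-0.32 to 0.04, adjusted p = 0.451) from 451, 389 and 464 against 431, 369 and 381. Psme2 had 11.3 to 20.6 in the controls and 12.1 to 23.8 in KO cells, too few counts for a narrow interval (-0.73 to 0.59). The median over these 4 genes was -0.14 (-0.22 without replicate 3), while core and 19S medians were above 0.

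Psmb8, the chymotrypsin-like subunit of the immunoproteasome, was close to 0 in every library. It had between 0 and 6 reads per library and normalized counts of at most 6.65. The parenchyma values were 3.74, 0 and 0.983 in the controls and 0, 1.011 and 1.13 in Ets1-KO cells. In the spleen they were 5.47, 3.23 and 3.13 in the controls and 0, 2.48 and 1.25 in Ets1-KO cells, and 2.17, 6.65 and 3.04 in the controls and 0.873, 2.07 and 3.64 in Grk2-KO cells. Psmb8 and Psmb9 lie near each other in the MHC region, at chr20:3990612-3993769 and chr20:3973419-3978845 (Rnor_6.0). Psmb9 had 219 or more reads in every library of the Ets1 spleen table, so that the pair was counted at unlike levels throughout. Whether the low count of Psmb8 came from the place of its 3' end in the annotation was not tested.

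Other genes under the count minimum were Psmb11, with 0 reads in all 18 libraries, Psma8, with at most 2 reads in any, and Psmd10, a chaperone of 19S assembly, with 3 to 18 reads. Psmc3ip, a cofactor of meiotic recombination, was under the minimum in the parenchyma alone, at 0.940 to 6.54 normalized counts. In the spleen its intervals were wide (-0.81 to 0.96 in Ets1-KO and -0.85 to 0.52 in Grk2-KO cells). Few reads for Psma8 and none for Psmb11 say no more than that both were at or below the limit that these depths allow.

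**Figure D2:**
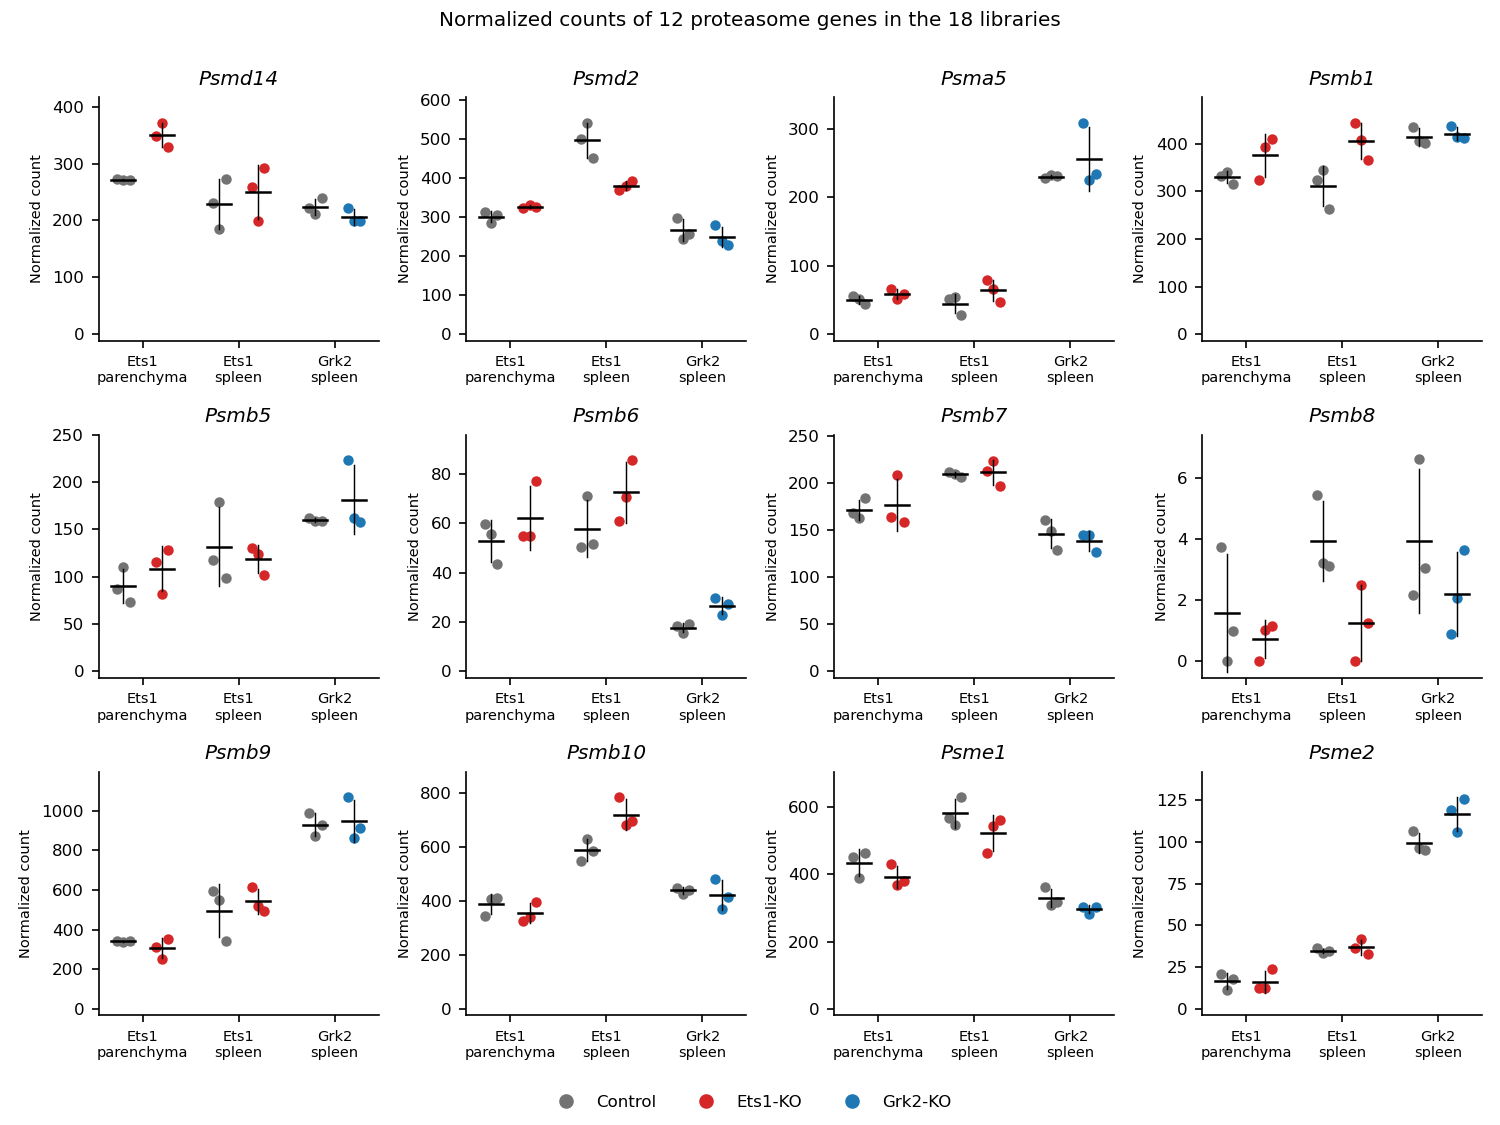
Normalized counts (y axis, from 0, 1 panel per gene) in each library of the 3 experiments, with dots for libraries, horizontal bars for means and vertical bars for the SD of 3 libraries. The Psmd14 controls in the parenchyma sit between 270.3 and 273, below all 3 Ets1-KO libraries, and Psmb8 stays at or under 6.65 everywhere.

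In the spleen, none of the 46 proteasome genes was called in Ets1-KO cells with limma, where 2.22% of all 6979 genes tested were called. At an unadjusted p under 0.05 there were 6 of 46 (13.04%), against 14.1% of all genes. Those 6 were Psma5, Psmb1, Psmb3 and Psmb10, with estimates above 0, and Psmc3 and Psmd2, with estimates below 0. edgeR called 2, Psmb1 (log2 fold change 0.39, adjusted p = 0.0446) and Psmd2 (-0.38, adjusted p = 0.0493), where it called 3.41% of all genes. DESeq2 called 0, against 0.53% of all genes. At an unadjusted p under 0.05 edgeR had 7 (14.4% of all genes) and DESeq2 3 (5.43%). Control and KO libraries did not overlap for 6 of 46, against 16.9% of all genes.

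Psma5, an alpha subunit of the core (chr2:211050359-211073714, plus strand, Rnor_6.0), had the highest estimate. Its normalized counts were 51.4, 53.8 and 28.2 in the controls and 78.7, 65.7 and 47.5 in Ets1-KO cells. Each KO library lay above the control of its number, and the groups overlapped. The log2 fold change was 0.54 (95% interval 0.12 to 0.96, limma adjusted p = 0.207), and 0.45 without replicate 3. Psmd2, the scaffold of the 19S base on which shuttle proteins dock (chr11:83934086-83944763, minus strand, Rnor_6.0), had the lowest estimate. Its counts were 501, 541 and 451 in the controls and 371, 379 and 394 in KO cells, and every KO library lay below every control. The log2 fold change was -0.38 (-0.62 to -0.14, limma adjusted p = 0.0820). Without replicate 3, which leaves out the control library that stood apart, it was -0.47 with a limma adjusted p of 0.0208. That p was 0.702 without replicate 1 and 0.227 without replicate 2.

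Psmb1, a beta subunit without an active site, was chosen for description after its values were seen. It had 325, 344 and 263 normalized counts in the spleen controls and 444, 408 and 367 in Ets1-KO cells, with no overlap. The log2 fold change was 0.39 (0.15 to 0.63, limma adjusted p = 0.0771). The limma adjusted p was 0.0388 without replicate 2 and 0.0490 with upper quartile scaling. It was 0.690 without replicate 1 and 0.1503 without replicate 3.

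Core and 19S genes had medians of opposite sign in the spleen. The 14 core subunits had a median log2 fold change of 0.16, with 11 positive, and the 17 subunits of the 19S regulator a median of -0.13, with 5 positive. Without replicate 3 these were 0.10 and -0.07. All 46 genes together had a median of 0.02, which was -0.01 without replicate 3 and -0.05 with a count minimum of 50, beside 0.00 for all genes tested. No core or 19S gene passed the limma test, so the medians describe the lists. Genes with CCGGAA in the promoter window had a median of -0.11 (21 genes, 7 positive) and those without one 0.16 (21 genes, 15 positive). In the parenchyma these medians were 0.06 (20 genes) and 0.16 (21 genes), and for Grk2-KO cells -0.04 and -0.01 (21 genes each). Since 10 of the 14 windows of 19S genes held CCGGAA, motif and role cannot be told apart.

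The immunoproteasome genes of the spleen gave Psmb10 at 547, 630.3 and 586 normalized counts in the controls and 784, 681 and 694 in Ets1-KO cells, without overlap. The log2 fold change was 0.29 (0.06 to 0.52, limma adjusted p = 0.227), and 0.32 without replicate 3. Psmb9 had 595, 548 and 343 in the controls, of which the lowest was the library that stood apart, and 614, 521 and 491 in KO cells (log2 fold change 0.16, -0.09 to 0.41, adjusted p = 0.591). Without replicate 3 the Psmb9 estimate was -0.01. Psme1 gave -0.16 (-0.39 to 0.07) and Psme2 0.08 (-0.41 to 0.57). Of the active-site genes they replace or accompany, Psmb5 gave -0.11 (-0.43 to 0.21), Psmb6 0.33 (-0.07 to 0.72) and Psmb7 0.01 (-0.25 to 0.27). Without replicate 3 these were -0.19, 0.13 and 0.05, and Psme1 and Psme2 were -0.15 and 0.16. Psmb7 had 207 to 212 normalized counts in the controls and 197 to 224 in KO cells.

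The Ets1-KO effects of the 2 tissues were compared directly, from the log2 ratios of same-numbered libraries within each table. None of the 45 genes tested in both tissues differed at an adjusted p under 0.05 with limma, where 2.1% of all 6520 genes tested did. At an unadjusted p under 0.05 there were 6 of 45 with limma, a share of 13.3% against 13.8% of all genes, and 4 without the replicate block. The 6 were Psmd2, Psmb10, Psmf1, Psmb9, Psmd13 and Psme3ip1. Psmd2 was 0.50 higher in the parenchyma than in the spleen on the log2 scale (95% interval 0.20 to 0.79, adjusted p = 0.0647). With a count minimum of 50 its limma adjusted p was 0.0453. Without replicates 1, 2 and 3 in turn it was 0.387, 0.370 and 0.0547. The effect on Psmb10 was lower in the parenchyma, at -0.42 (-0.71 to -0.13, adjusted p = 0.119), and that on Psmb9 was -0.34 (-0.66 to -0.02, adjusted p = 0.331). Psmd14, called in the parenchyma and not in the spleen, differed by 0.24 (-0.07 to 0.55), so a difference between tissues was not shown.

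The inhibitor gene Psmf1 (PI31), also chosen after its values were seen, had 160, 174 and 163 normalized counts in parenchyma controls and 126, 137 and 146 in Ets1-KO cells there. In the spleen it had 119, 140 and 161 in controls and 175, 177 and 157 in KO cells. All parenchyma KO libraries lay below their controls, and 2 of 3 spleen KO libraries lay above the controls of their number. The effects differed by -0.56 (-0.94 to -0.18, limma adjusted p = 0.119), and by -0.78 without replicate 3 (adjusted p = 0.0484). The limma adjusted p was 0.685 without replicate 1 and 0.370 without replicate 2. Over the 17 subunits of the 19S regulator the parenchyma effect exceeded the spleen effect in 16, with a median difference of 0.23, beside -0.04 for all genes tested. For the 14 core subunits the median difference was -0.03, with 5 positive, and for the 4 immunoproteasome and PA28 genes -0.24, with 1 positive.

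**Figure D3:**
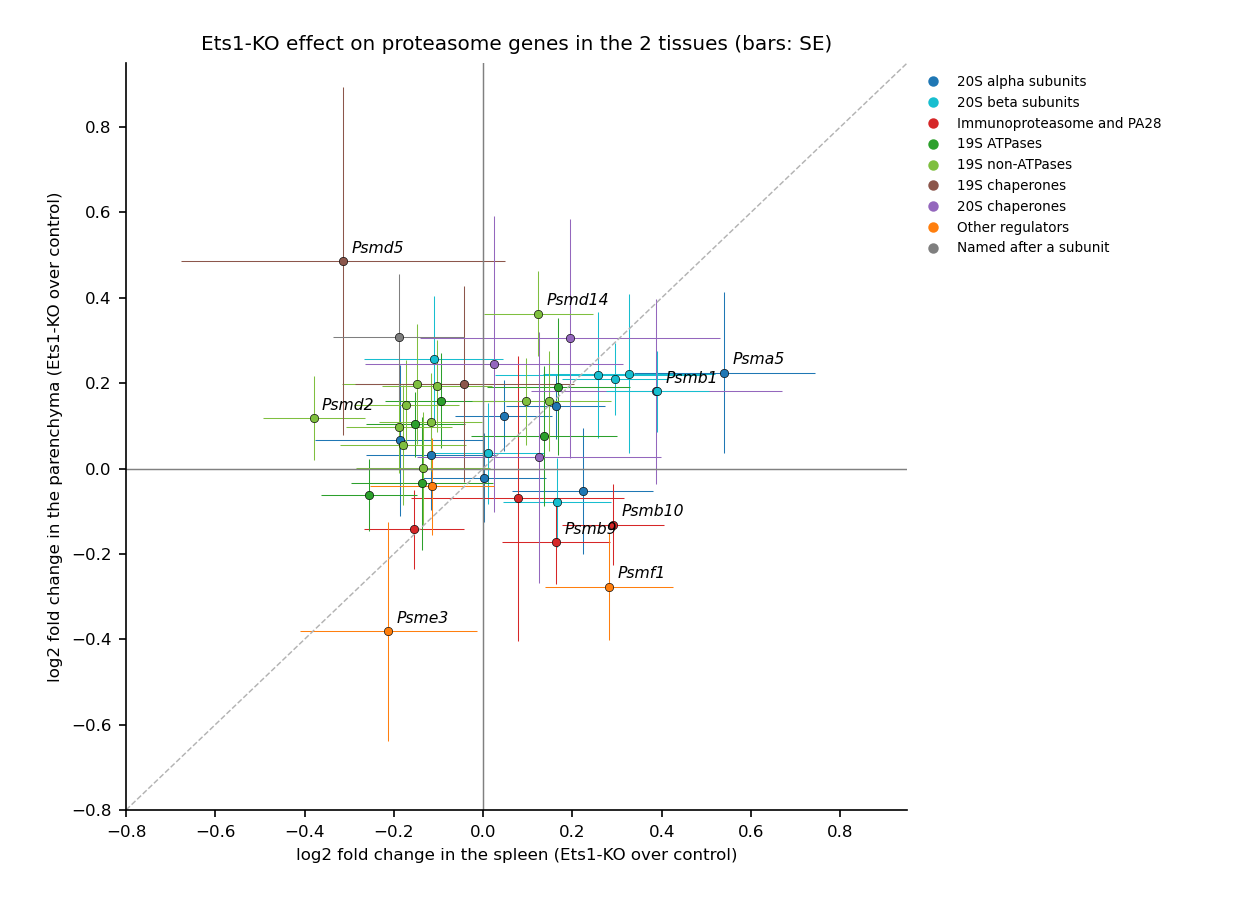
Log2 fold change of Ets1-KO over control in the spleen (x axis) and in the parenchyma (y axis) for the 45 genes tested in both tissues, with SE bars and colour by role. Of the 17 genes of 19S, 16 lie above the dashed line of equal effect, and Psmb9, Psmb10 and Psmf1 lie below it, with no single difference past the test. The genes share the same libraries and are not independent.

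In Grk2-KO cells of the spleen, none of the 46 proteasome genes was called with limma, edgeR or DESeq2, where 1.56% of all 6985 genes tested were called with limma. At an unadjusted p under 0.05 limma had 1 (2.17%, against 10.4% of all genes), edgeR 1 (10.2% of all genes) and DESeq2 0 (1.88%). Adjusted calls took 1.29% of all genes with edgeR and 0.143% with DESeq2. Control and KO libraries did not overlap for 6 of 46, against 12.2% of all genes. The 95% intervals lay within 0.5 of 0 on the log2 scale for 38 of 46 genes and within 1 for 45, and the median estimate was -0.03, beside 0.02 for all genes tested.

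Psmb6 had the highest estimate. Its normalized counts were 18.4, 15.5 and 19.2 in the controls and 29.7, 22.8 and 27.3 in Grk2-KO cells, from 14 to 34 reads per library. Every KO library lay above every control, with a fold of 1.47 (95% interval 1.007 to 2.15) and a limma adjusted p of 0.470. Psme3 had the lowest, at 49.9, 44.3 and 47.6 in the controls and 42.8, 28.0 and 38.2 in KO cells. These groups did not overlap (log2 fold change -0.39, -0.79 to 0.01, adjusted p = 0.498).

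The other active-site and immunoproteasome genes stayed close to their controls after Grk2 editing. Psmb9 had 990, 872 and 927 normalized counts in the controls and 1069.8, 863 and 913 in KO cells, with a log2 fold change of 0.02 (-0.11 to 0.16). For Psmb10 the estimate was -0.07 (-0.23 to 0.10), for Psmb7 -0.08 (-0.30 to 0.15) and for Psme1 -0.15 (-0.32 to 0.03). Psmb5 gave 0.16 (-0.05 to 0.38), with the KO library of replicate 1 at 224 and all other 5 libraries between 158 and 163. Psme2 gave 0.23 (-0.03 to 0.48). Psmd14 was -0.12 (-0.32 to 0.08). Changes of 1.5-fold in Psmb9, Psmb10, Psmb7, Psme1 and Psmd14 lay outside these intervals.

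Within the classes, no assembly chaperone passed the limma test in any comparison. The 4 chaperones of 20S assembly, which pair the alpha subunits into a ring, had estimates between 0.03 and 0.30 on the log2 scale in Ets1-KO cells of the parenchyma, between 0.02 and 0.39 in those of the spleen and between -0.38 and -0.02 in Grk2-KO cells. Their intervals were wide, and none of the 4 stayed within 0.5 of 0 in either Ets1 comparison. The 7 alpha subunits, which form the gate of the core, ranged from -0.05 to 0.22 in the parenchyma, from -0.19 to 0.54 in the spleen with Ets1-KO and from -0.08 to 0.14 with Grk2-KO. The 7 constitutive beta subunits ranged from -0.08 to 0.26, from -0.11 to 0.39 and from -0.08 to 0.56. The 6 ATPases of the 19S base ranged from -0.06 to 0.19, from -0.26 to 0.17 and from -0.09 to 0.25. Among the other regulators, Psme3, Psme4 (PA200, a nuclear cap) and Psmf1 had estimates below 0 in the parenchyma and with Grk2-KO, with medians of -0.28 and -0.16, and 1 of 3 was positive in the spleen with Ets1-KO.

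Proteasome genes together took 0.680% to 0.701% of the reads on genes in parenchyma controls and 0.726% to 0.741% in Ets1-KO cells there, without overlap. In the spleen it was 0.830% to 0.899% in controls and 0.820% to 0.935% in Ets1-KO cells, and 0.802% to 0.894% in controls and 0.795% to 0.886% in Grk2-KO cells, with overlap in both. The 19S subunits took 0.292% to 0.299% in parenchyma controls and 0.315% to 0.330% in Ets1-KO cells, and 0.383% to 0.410% in spleen controls and 0.354% to 0.379% in Ets1-KO cells. Those shares did not overlap in either tissue and lay on opposite sides. Reads on mitochondrial genes, 14.1% to 27.4% of all, are part of these totals. In the Ets1-KO cells of the spleen they were 14.1% and 14.9% in replicates 1 and 2 and 21.0% in replicate 3.

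**Figure D4:**
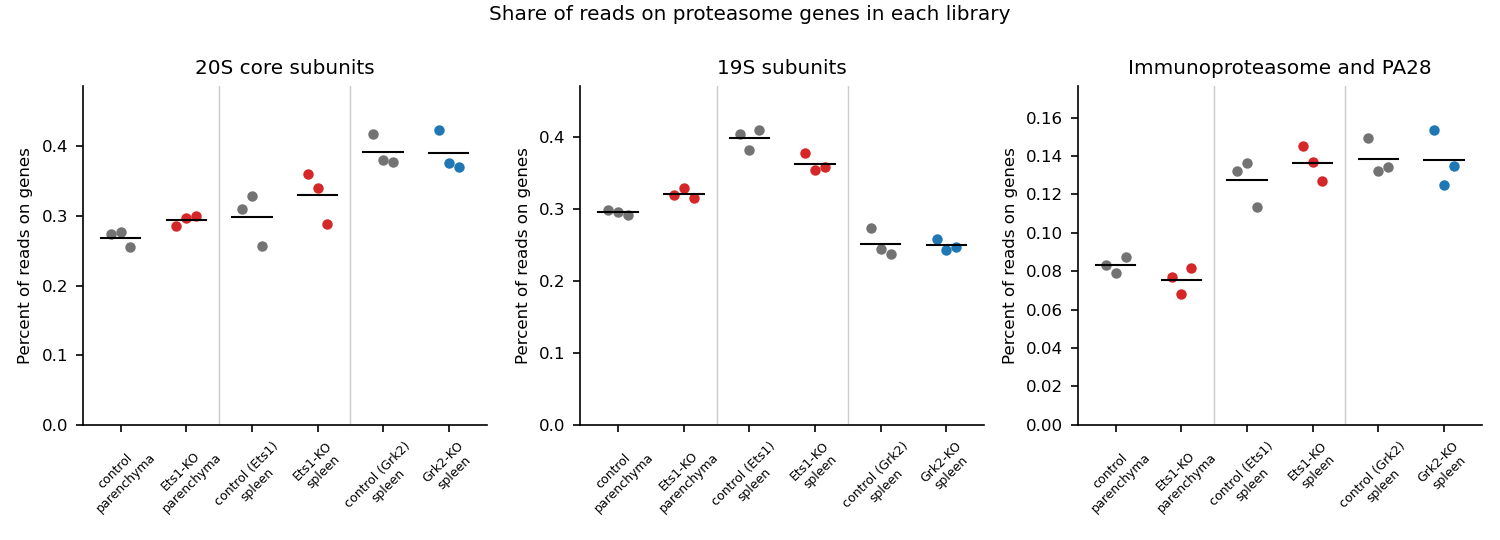
Percent of each library's reads on genes that fell on core, 19S, and immunoproteasome and PA28 genes (y axes, from 0), by group, with dots for libraries and bars for group means. The 19S shares of Ets1-KO cells lie above the controls in the parenchyma (0.315% to 0.330% against 0.292% to 0.299%) and below them in the spleen.

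The tables were scaled separately, so the control levels of the experiments are set side by side without a test, as read shares or as rpm (reads scaled to the library's total on genes). The immunoproteasome and PA28 genes took 0.109% to 0.117% of the non-mitochondrial reads of parenchyma controls, 0.139% to 0.165% in the spleen controls for Ets1-KO and 0.171% to 0.192% in those for Grk2-KO. The ranges of these shares in parenchyma and spleen did not overlap. Psmb9 was at 233 to 243 rpm in the parenchyma, 244 to 448 in the spleen controls for Ets1-KO and 674 to 774 in those for Grk2-KO. Psme2 was at 7.76 to 14.7, 24.5 to 27.2 and 71.5 to 83.1, and Psmb10 at 246 to 292, 412 to 488 and 329 to 351. Psme1 was at 268 to 328, 423 to 448 and 238 to 282. Its parenchyma range overlapped that of the spleen controls for Grk2-KO, where the mean was lower (253 against 306). Unlike the shares above, rpm includes mitochondrial reads in the total, 25.4% to 27.4% in parenchyma and 17.3% to 18.6% in Ets1 spleen controls. Leaving these reads out would raise the parenchyma values more than the spleen values. The low end of Psmb9 in the Ets1 spleen controls, 244 rpm, was replicate 3, the library that stood apart. Replicates 1 and 2 were at 448 and 424 rpm. The narrow gap of Psmb9 between these groups was not checked without mitochondrial reads and cannot be read as a difference.

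The spleen controls of the Ets1 and Grk2 experiments also differed in several constitutive genes, although both are labelled alike. Psma5 was 5.29-fold higher in the Grk2 experiment (177 against 33.5 rpm on average), Psma1 3.57-fold and Psmb2 3.43-fold. Psmc1, an ATPase of the 19S base, was 3.34-fold higher in the Ets1 experiment (841 against 252), and Psmb6 3.17-fold. In all, 11 of 46 genes were more than 2-fold apart, 6 higher in the Grk2 and 5 in the Ets1 experiment. This share equalled the background, since 23.9% of all 6490 genes tested in both spleen tables were as far apart. These genes were named after their values were seen, and the experiment and whatever else differed between the tables cannot be told apart. Each comparison with a KO stayed within its own table.

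Partners of the proteasome outside the Psm names comprised 26 listed genes, such as other 19S subunits, ubiquitin genes, shuttle factors and regulators. In the parenchyma 0 of 22 tested were called with limma (4 at an unadjusted p under 0.05, where 16.9% of all genes were), with a median log2 fold change of 0.05, beside -0.03 for all genes. In Ets1-KO cells of the spleen 1 of 22 was called, where 2.22% of all genes were. It was Rps27a, which encodes ubiquitin fused to a ribosomal protein. It had 180, 143 and 218 normalized counts in the controls and 344, 239 and 270.4 in KO cells, with a log2 fold change of 0.66 (SE 0.13, limma adjusted p = 0.00847). Every KO library lay above every control. The adjusted p was 0.542 without replicate 1, 0.329 without the variance trend and 0.0669 with DESeq2, and 3.17e-05 without replicate 3. The effect on Rps27a differed between the tissues by -0.64 for parenchyma minus spleen (limma adjusted p = 0.0447), a call that was lost without the replicate block (0.171), without replicate 1 (0.483) and without replicate 2 (0.374), among others. In Grk2-KO cells 0 of 24 were called (1 at an unadjusted p under 0.05, where 10.4% of all genes were).

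Of the 12 genes of class I peptide processing and its inducers, 10 were tested. In the parenchyma 2 of the 10 were called with limma, both lower in Ets1-KO cells, where 5.23% of all genes tested were called. The median log2 fold change of the 10 was -0.19, beside -0.03 for all genes. Canx, a chaperone of MHC class I assembly, had 1042, 1155 and 1018 in the controls and 934, 934 and 787 in KO cells, with every KO library below every control (log2 fold change -0.28, SE 0.08, limma adjusted p = 0.00929). The adjusted p was 0.221 without replicate 2, 0.0614 without replicate 3, 0.0746 without the replicate block, 0.0598 with no count filter, 0.454 without the variance trend and 0.332 with DESeq2. In the spleen 0 of 10 were called in Ets1-KO cells (1 at an unadjusted p under 0.05, where 14.1% of all genes were) and 0 of 10 in Grk2-KO cells (2, where 10.4% were). Psmb9, Psmb10, Psme1 and Psme2 did not pass the test in the parenchyma.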

How the data were processed

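In each of the 3 tables, the deposited values are a signal: the authors scaled read counts by DESeq2 size factors (poscounts) for that table alone. Per the methods and the submitters' processing notes, reads of 3' mRNA libraries were aligned with STAR 2.7.2b to Rnor_6.0 and counted with HTSeq 1.0.0. All values were whole multiples of 1 step per library (100%, tolerance 0.01), from which reads were recovered. Columns of the authors' own comparisons (fold changes, p values) were left out, as were 8 columns with values of human samples.

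Genes with a mean of at least 10 were tested on log2(value + 1), a scale that understates changes of low genes, with limma 3.58.1 in R 4.3.3 (lmFit, eBayes with a trend), two-sided, with replicate number as a block since the study's methods name a correction per animal where applicable and Benjamini-Hochberg adjustment over all genes (threshold 0.05). The spread behind an SE or interval is largely shared by limma across genes of like level. The tissue comparison used limma on same-numbered log2 ratios. edgeR 4.0.16 and DESeq2 1.42.0 were run on the recovered reads. Other alternatives were no block, pseudocounts of 0.1 and 5, no filter, a minimum of 50, quantile and upper quartile scaling, no trend and leaving out each replicate. The fits were tested on simulated counts with changes of 1 on the log2 scale and no replicate effect. Recovery of changes as small as those of the proteasome genes was not tested. The depth was 898092 to 2248258 reads per library, and wide intervals mark genes of few reads.

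The members and lists were chosen with earlier results of these data known. Named were members called in any comparison, the immunoproteasome, PA28 and active-site genes, the highest and lowest estimate of each comparison, members under the minimum and called genes of the 2 partner lists. Some called genes of these lists and 1 motif are not reported here. Others were named after their values were seen: those with an unadjusted p under 0.05, Psmd4, Psmb1, Psmf1 and the genes set side by side between spleen controls.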

Additional observations from a re-analysis of the deposited data

How the results depend on the processing

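The number of proteasome genes called in the parenchyma was 1, and 0 with DESeq2 and without the variance trend. Leaving out each replicate gave 0 to 1, 0 without replicate 1, and without replicate 2 the gene called was Psmb5 and not Psmd14. In the spleen of the Ets1 experiment 0 were called, but 2 with edgeR, 1 with upper quartile scaling and 0 to 2 with a replicate left out (Psmb1 and Psmb3 without replicate 2, Psmd2 without replicate 3). The tissue comparison called 0, but 1 with a minimum of 50 and 0 to 1 with a replicate left out (Psmf1 without replicate 3). The Grk2 comparison called 0 under all 13 alternatives. Without the replicate block, the 4 comparisons called 1, 0, 0 and 0. Deviations of same-numbered libraries correlated at -0.003 to 0.159 in the parenchyma, 0.077 to 0.175 in the Ets1 and 0.006 to 0.145 in the Grk2 spleen table, and the labels do not tie a number to an animal, so whether the numbers pair the libraries is not known. In the Ets1 spleen table alone every library correlated best with its own number, a hint from the data and not the design. Of 711 values of named genes under alternatives, 699 kept their side of the threshold. This count includes genes far from the threshold, so it is no measure of stability. Psmd14 in the parenchyma stayed under the threshold in 9 of 13 alternatives. The cause of the changes was not tested. Genes of few reads, such as Psmd5 and Psmb6 in the Grk2 experiment, had intervals too wide to exclude changes of 1.5-fold.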
